A study of Saccharomyces cerevisiae with 12 samples.

Results

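Budding yeast makes its nucleosomes from 4 core histones, each encoded by a pair of near-identical gene copies, and these 8 genes together with those of the variant H2A.Z and the linker histone were followed through the 4 strains of a Taf14 study. The 10 genes were taken from the deposited count table by their systematic identifiers: HTA1 (YDR225W) and HTA2 (YBL003C) for H2A, HTB1 (YDR224C) and HTB2 (YBL002W) for H2B, HHT1 (YBR010W) and HHT2 (YNL031C) for H3, HHF1 (YBR009C) and HHF2 (YNL030W) for H4, HTZ1 (YOL012C) for H2A.Z and HHO1 (YPL127C) for the linker histone. They are 10 of the 6692 genes in the table, and all 10 passed the filter on low counts.

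RNA was sequenced from 12 libraries of Saccharomyces cerevisiae, 3 from each of 4 strains built on BY4741, a haploid laboratory strain. The W81A strain lacked chromosomal taf14 and carried pRS313-taf14W81A-HA3-SSN6, a plasmid with a Taf14 whose YEATS domain is mutated so that it no longer binds acetylated histone H3. The deletion strain lacked taf14 and carried pRS313-HA3-SSN6, a plasmid whose label names no form of TAF14. The TAF14 strain had the same deletion and carried pRS313-TAF14-HA3-SSN6, with full-length Taf14. Wild type was BY4741 with pRS313-HA3-SSN6. All 4 groups therefore carried a plasmid of the pRS313-HA3-SSN6 type, and Taf14 came from a plasmid in the W81A and TAF14 strains but from the chromosome in wild type. The labels do not give the part played by HA3-SSN6, whether a strain is a single clone, or whether replicates were separate cultures, so a p-value here speaks to the spread among these libraries, which may be technical. The groups are called W81A cells, deletion cells, TAF14 cells and wild type.

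The core histone genes of yeast lie in 4 divergent pairs, in which an H2A gene faces an H2B gene, or an H3 gene faces an H4 gene, across a shared regulatory region. Their transcripts accumulate in S phase, when new DNA has to be packaged, under the activators Spt10, Spt21 and SBF. The HIR complex represses the pairs outside S phase, with HTA2-HTB2 the known exception. HTZ1 and HHO1 are single-copy genes. H2A.Z replaces H2A next to many promoters and is placed there by the SWR1 complex. Taf14 is a subunit of several transcription and chromatin complexes, among them TFIID, TFIIF, SWI/SNF, INO80 and NuA3.

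An element found between the genes of all 4 pairs is the Spt10 site of the histone upstream activating sequence, shown here because it is shared by gene pairs that differed in deletion cells. The motif reads TTCC, then any 6 bases, then TTC, any base and C, and it was searched on both strands of the R64 (sacCer3) genome of RefSeq between the start codons of each pair. The 5 matches found are given 5′ to 3′ on the strand that reads as the motif, with its fixed letters in capitals.
HTB1-HTA1, plus strand, chrIV:915114-915128: TTCCaaaattTTCgC
HTB1-HTA1, minus strand, chrIV:915137-915151: TTCCaatagcTTCgC
HTA2-HTB2, minus strand, chrII:236108-236122: TTCCcattatTTCtC
HHF1-HHT1, minus strand, chrII:255944-255958: TTCCgagcgcTTCtC
HHT2-HHF2, minus strand, chrXIV:576346-576360: TTCCgagcacTTCgC

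The HTB1-HTA1 region, 817 bp long (chrIV:914713-915529), held 2 matches, while the HTA2-HTB2 (699 bp, chrII:235793-236491), HHF1-HHT1 (646 bp, chrII:255685-256330) and HHT2-HHF2 (676 bp, chrXIV:576051-576726) regions held 1 each. The motif occurred in 4.58% of 1527 divergent regions of the genome and in 7.87% of the 534 that were 500 to 1000 bp long, and only 2 of the 1527 held 2 or more matches. These shares include the histone regions, and HTB1-HTA1 was among those with 2 or more. The motif is that of the histone upstream activating sequence, so finding it in these regions is not an independent result. The matches began 260 to 425 bases from the start codon of the left gene and 367 to 402 bases from that of the right gene, outside the window from 250 bases before to 50 after a gene's start, which held the motif in 0 of the 10 genes and in 1.48% of 6020 promoters. The stretches around the matches in the 2 H2A-H2B regions are given on the plus strand, where a minus-strand match reads as its reverse complement, again with the fixed letters of the motif in capitals.
HTB1-HTA1, chrIV:915074-915191: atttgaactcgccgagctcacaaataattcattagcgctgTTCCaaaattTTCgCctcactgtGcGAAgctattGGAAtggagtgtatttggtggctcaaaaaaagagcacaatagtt
HTA2-HTB2, chrII:236068-236162: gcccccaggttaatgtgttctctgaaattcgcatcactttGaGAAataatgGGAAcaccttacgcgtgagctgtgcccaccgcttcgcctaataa

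The SBF motif CGCGAAA occurred 2 times in the HTB1-HTA1 region, 1 time in the HHT2-HHF2 region and not in the other 2. The MBF motif ACGCGT, which can share the letters CGCG with it, occurred 1 time, in the HTA2-HTB2 region. In the window from 250 bases before to 50 after the start, CGCGAAA was found for HHO1 alone of the 10 genes and in 3.59% of all promoters, ACGCGT for none and in 3.06%, and TATAAA for HTA1, HTB1, HHT1, HHF1 and HHT2 and in 45.4%. All 4 motifs were searched on both strands. A match describes the letters and does not show that the factor is bound, and a missing match says only that these letters are not in the window.

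**Figure D1:**
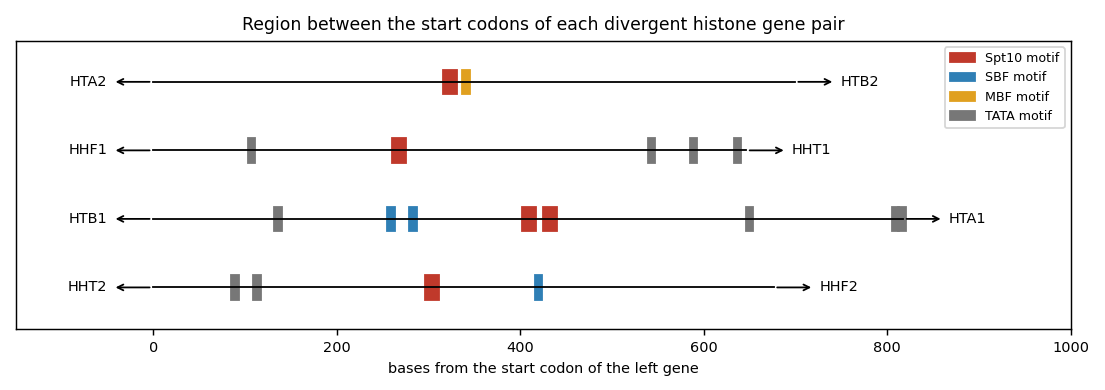
Maps of the 4 divergent histone regions, drawn to scale in bases from the start codon of the left gene (horizontal axis), with matches to the Spt10, SBF, MBF and TATA motifs marked along each region. Every region holds an Spt10 match between its start codons, the HTB1-HTA1 region holds 2, and the regions run from 646 to 817 bp.

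Library totals ran between 9.01 and 11.7 M counts. TAF14 itself, the deleted gene, had 223, 203 and 192 CPM (counts per 1e+06 after the library total is scaled) in W81A cells, 0.437, 0.199 and 0.484 in deletion cells, 355, 143 and 302 in TAF14 cells, and 132, 129 and 148 in wild type. The TAF14 library numbered 2 stood apart from its 2 fellows: it had the lowest TAF14 level of its group, the stress gene HSP12 was at 165 CPM there against 6.18 CPM in each of the others, and genes of chromosome XII were higher by 0.568 on the log2 scale. A shift of chromosome XII of 0.480 to 0.534 was also present in the 3 deletion libraries, against -0.00528 to 0.0326 in the other 8. HSP12 had 43.6 to 79.2 CPM in wild type, 1151 to 1299 CPM in W81A cells and 1378 to 1562 CPM in deletion cells. The TAF14 libraries numbered 1 and 3 were thus the lowest of the series for that gene, well under the W81A and deletion libraries. No histone gene lies on chromosome XII, and the histone gene calls and list counts that rest on the TAF14 library numbered 2 are also given without it.

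Core histone transcripts were most abundant with the W81A form of Taf14. The 8 core genes summed to 2919 ± 75.4 CPM in W81A cells, 2408 ± 109.8 CPM in deletion cells, 1836 ± 190.2 CPM in TAF14 cells and 2332 ± 56.8 CPM in wild type (SD, n = 3 each). The 3 W81A libraries held 2853 to 3002 CPM, above every other library. The lowest library of deletion cells, at 2281 CPM, lay just under the lowest of wild type, at 2287 CPM, so those groups overlapped. The TAF14 libraries numbered 1 and 3 had 1749 and 1705 CPM, and the one numbered 2 had 2054 CPM. In RNA from whole cultures, more transcript in each cell cannot be told apart from more cells in the phase in which these genes are on.

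**Figure D2:**
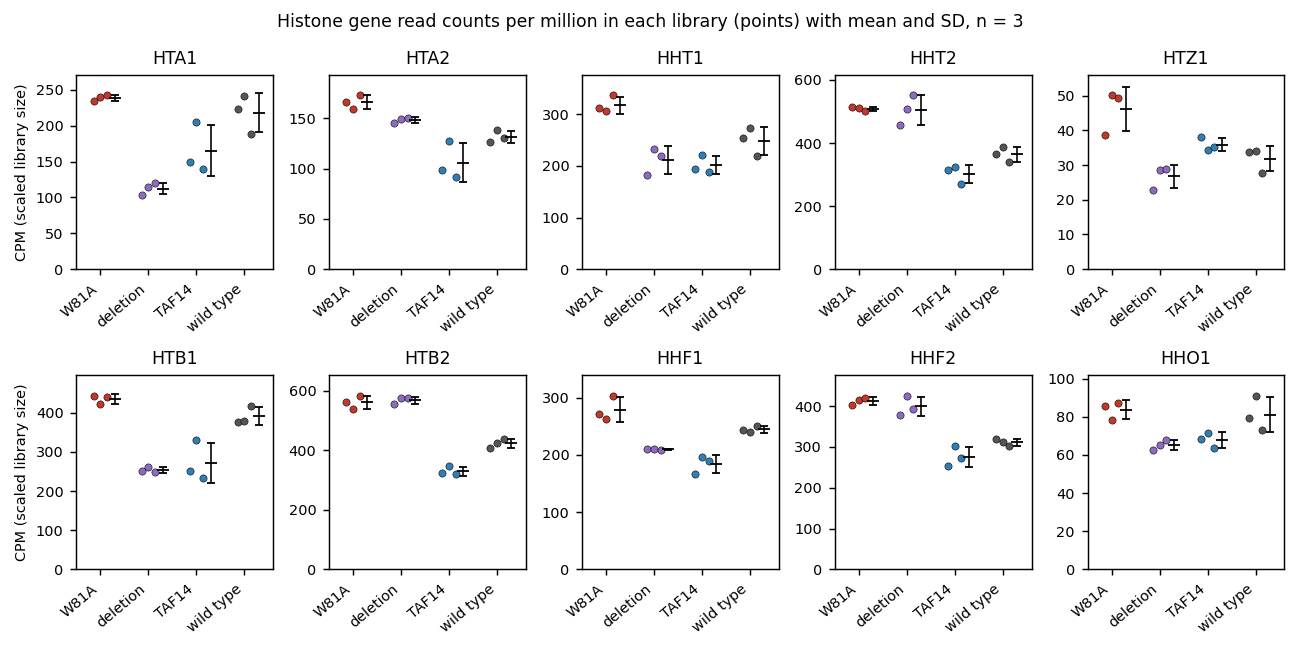
Level of each of the 10 histone genes in every library (points), in CPM on a vertical axis from 0, with the mean and SD of each group (n = 3), for the W81A, deletion, TAF14 and wild type strains from left to right. HTB2, HHT2 and HHF2 are high in both the W81A and deletion strains, whereas HTA1 is lowest in deletion cells, at 103 to 119.8 CPM.

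The W81A strain was set against TAF14 cells to compare plasmid-borne Taf14 that cannot bind acetylated H3 with the full-length form. TAF14 itself had 223, 203 and 192 CPM in W81A cells against 355, 143 and 302 CPM in TAF14 cells. HIS3 had 641, 645 and 671 CPM in W81A cells against 1187, 557 and 1052 CPM in TAF14 cells. The part of these levels in the histone results was not tested. All 10 histone genes rose and none fell, where 15.8% of the 5918 genes tested rose and 17.2% fell (edgeR quasi-likelihood test, Benjamini-Hochberg adjusted p under 0.05). The median log2 fold change was 0.65 for the 8 core genes and 0.62 for all 10, against 0.000460 for all genes tested. Among the core genes the changes lay between 0.53 and 0.77, a rise of about 1.45 to 1.70 times. Every W81A library lay above every TAF14 library for all 10 genes, an order seen for 23.3% of all genes and in the opposite direction for 22.6%.

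HTA1, 1 of the 2 H2A genes, had 234, 240.1 and 242 CPM in W81A cells against 150.1, 206 and 139 CPM in TAF14 cells, a log2 fold change of 0.53 ± 0.13, adjusted p = 0.00636. Its divergent partner HTB1, for H2B, had 443, 421 and 441 CPM in W81A cells against 249.9, 329.5 and 234 CPM in TAF14 cells (0.68 ± 0.10, adjusted p = 0.000299). For both genes the TAF14 library numbered 2 was the highest of its group and came closest to the W81A libraries. The second H2A gene, HTA2, had 166, 159 and 173 CPM with W81A and 98.7, 128 and 91.3 CPM with TAF14 (0.65 ± 0.0975, adjusted p = 0.000322). HTB2, the other H2B gene, changed with the smallest p of the 10, at 561, 538 and 583 CPM in W81A cells against 323, 346 and 319 CPM in TAF14 cells (0.77 ± 0.0568, adjusted p = 1.18e-06). The 4 genes of the H2A-H2B pairs thus rose by log2 values between 0.53 and 0.77.

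The H3 and H4 genes rose over much the same range. HHT1, for H3, had 312, 306 and 337 CPM in W81A cells against 194, 222 and 189 CPM in TAF14 cells (0.66 ± 0.10, adjusted p = 0.000382), and its H4 partner HHF1 had 271, 262 and 303 CPM in W81A cells against 166, 197 and 189.9 CPM in TAF14 cells (0.60 ± 0.0701, adjusted p = 4.67e-05). HHT2, the more abundant H3 copy, had 514, 512 and 502 CPM in W81A cells against 314, 323 and 270.4 CPM in TAF14 cells (0.75 ± 0.0827, adjusted p = 2.91e-05). HHF2, its H4 partner, had 402, 416 and 420.2 CPM in W81A cells against 254, 303 and 272 CPM in TAF14 cells (0.58 ± 0.0682, adjusted p = 4.75e-05). Without the TAF14 library numbered 2, the 8 core genes kept their direction and their calls, with log2 changes of 0.72 for HTA1, 0.85 for HTB1, 0.81 for HTA2 and 0.80 for HTB2.

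The 2 genes outside the core set rose less. HTZ1, for H2A.Z, had 38.8, 50.1 and 49.4 CPM in W81A cells against 38.0, 34.3 and 35.3 CPM in TAF14 cells (0.36 ± 0.12, adjusted p = 0.0314), and the lowest W81A library lay just above the highest TAF14 library. HHO1, for the linker histone, had 85.8, 78.3 and 87.2 CPM in W81A cells against 68.4, 71.5 and 63.4 CPM in TAF14 cells (0.31 ± 0.0823, adjusted p = 0.0128). Both calls depended on single libraries. For HTZ1 the adjusted p was 0.0568 without the TAF14 library numbered 2, 0.0747 without that numbered 3, 0.119 without the W81A library numbered 2 and 0.108 without that numbered 3. For HHO1 it was 0.0508 without the TAF14 library numbered 3 and 0.050002 without the W81A library numbered 3.

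The deletion strain, which lacks the whole protein, was set against TAF14 cells. Its libraries also had the chromosome XII shift of 0.480 to 0.534, against 0.0326 and 0.0250 in the TAF14 libraries numbered 1 and 3. The part of that shift in the histone results was not tested. Here the histone genes did not move as a block: 5 rose (HTA2, HTB2, HHT2, HHF2 and HHF1), 2 fell (HTA1 and HTZ1) and 3 were not called (HTB1, HHT1 and HHO1). Among all genes tested 24.1% rose and 24.8% fell. The 3 libraries of each group did not overlap for 5 genes upward and 2 downward, where 26.5% of all genes lay wholly above and 27.6% wholly below. The median log2 change was 0.34 over the core genes, 0.13 over the 10, and 0.000492 over all genes.

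HTB2 had 553, 574 and 574 CPM in deletion cells against 323, 346 and 319 CPM in TAF14 cells (0.78 ± 0.0568, adjusted p = 2.63e-07), and HTA2 had 145, 149 and 151 CPM in deletion cells against 98.7, 128 and 91.3 CPM in TAF14 cells (0.48 ± 0.0976, adjusted p = 0.00121). HHT2 had 456, 509 and 551 CPM in deletion cells against 314, 323 and 270.4 CPM in TAF14 cells (0.74 ± 0.0827, adjusted p = 1.14e-05). HHF2 had 379.5, 426 and 394 CPM in deletion cells against 254, 303 and 272 CPM in TAF14 cells (0.53 ± 0.0682, adjusted p = 3.65e-05). The deletion and TAF14 libraries did not overlap for any of these 4 genes, which form the HTA2-HTB2 and HHT2-HHF2 pairs.

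The other 2 pairs behaved differently. HTA1 fell to 103, 114 and 119.8 CPM in deletion cells, against 150.1, 206 and 139 CPM in TAF14 cells (-0.55 ± 0.13, adjusted p = 0.00308), with no overlap. HTB1, which shares its regulatory region, had 250.4, 261 and 248 CPM in deletion cells and 249.9, 329.5 and 234 CPM in TAF14 cells (-0.0990 ± 0.10, adjusted p = 0.444), and the groups overlapped. Without the TAF14 library numbered 2 the sign for HTB1 turned, to 0.066 with an adjusted p of 0.394, which is still not a call. HHT1 had 182, 233 and 219.9 CPM in deletion cells and 194, 222 and 189 CPM in TAF14 cells (0.0704 ± 0.10, adjusted p = 0.591), again with overlap. HHF1 had 211, 209.5 and 209 CPM in deletion cells against 166, 197 and 189.9 CPM in TAF14 cells (0.19 ± 0.0702, adjusted p = 0.0415), but this call was lost in 9 of 21 alternative settings. These were the 6 libraries of the comparison alone and leaving out any deletion library, TAF14 replicate 1 or 3, W81A replicate 1 or wild type replicate 1 or 2 (adjusted p = 0.0519 to 0.135).

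HTZ1 had 22.9, 28.6 and 28.9 CPM in deletion cells against 38.0, 34.3 and 35.3 CPM in TAF14 cells (-0.42 ± 0.12, adjusted p = 0.0125), a fall that missed the threshold without the deletion library numbered 1 (adjusted p = 0.0531). HHO1 had 62.6, 65.3 and 67.8 CPM in deletion cells and 68.4, 71.5 and 63.4 CPM in TAF14 cells (-0.0546 ± 0.0832, adjusted p = 0.610), with overlap. Without the TAF14 library numbered 2 all 7 calls held, with HTA1 at -0.36 (adjusted p = 0.00369) and HTZ1 at -0.45 (adjusted p = 0.0106).

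The W81A and deletion strains were then compared directly, since each had been set against the same TAF14 libraries and their 2 results are not independent. In W81A cells 6 of the 10 genes were higher (HTA1, HTB1, HHT1, HHF1, HTZ1 and HHO1), 0 were lower and 4 were not called, where 22.7% of all genes tested passed upward and 22.5% downward. Libraries lay wholly above for 7 genes and wholly below for 0, against 29.3% and 28.5% of all genes. The largest difference was that of HTA1, which had 234, 240.1 and 242 CPM in W81A cells against 103, 114 and 119.8 CPM in deletion cells (1.09 ± 0.13, adjusted p = 2.67e-05, or 2.12 times). HTB1 had 443, 421 and 441 CPM in W81A cells against 250.4, 261 and 248 CPM in deletion cells (0.78 ± 0.10, adjusted p = 6.10e-05). HHT1 had 312, 306 and 337 CPM in W81A cells against 182, 233 and 219.9 CPM in deletion cells (0.59 ± 0.10, adjusted p = 0.000511). These libraries did not overlap for any of the 3 genes.

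HHF1 differed by 0.41 ± 0.0698, adjusted p = 0.000459, HTZ1 by 0.78 ± 0.12, adjusted p = 0.000221, and HHO1 by 0.36 ± 0.0825, adjusted p = 0.00347 on the log2 scale, W81A over deletion, with edgeR. The genes of the other 2 pairs were not called: HTA2 at 0.16 ± 0.0963, adjusted p = 0.190, HTB2 at -0.0164 ± 0.0562, adjusted p = 0.834, HHT2 at 0.0110 ± 0.0820, adjusted p = 0.924 and HHF2 at 0.0464 ± 0.0677, adjusted p = 0.602. Their standard errors leave room for small differences in either direction, and a p above the threshold does not show that the levels were alike. The HTA2 difference was called in 2 settings, the 6 libraries of the comparison alone (adjusted p = 0.0255) and without the TAF14 library numbered 2 (adjusted p = 0.0207).

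**Figure D3:**
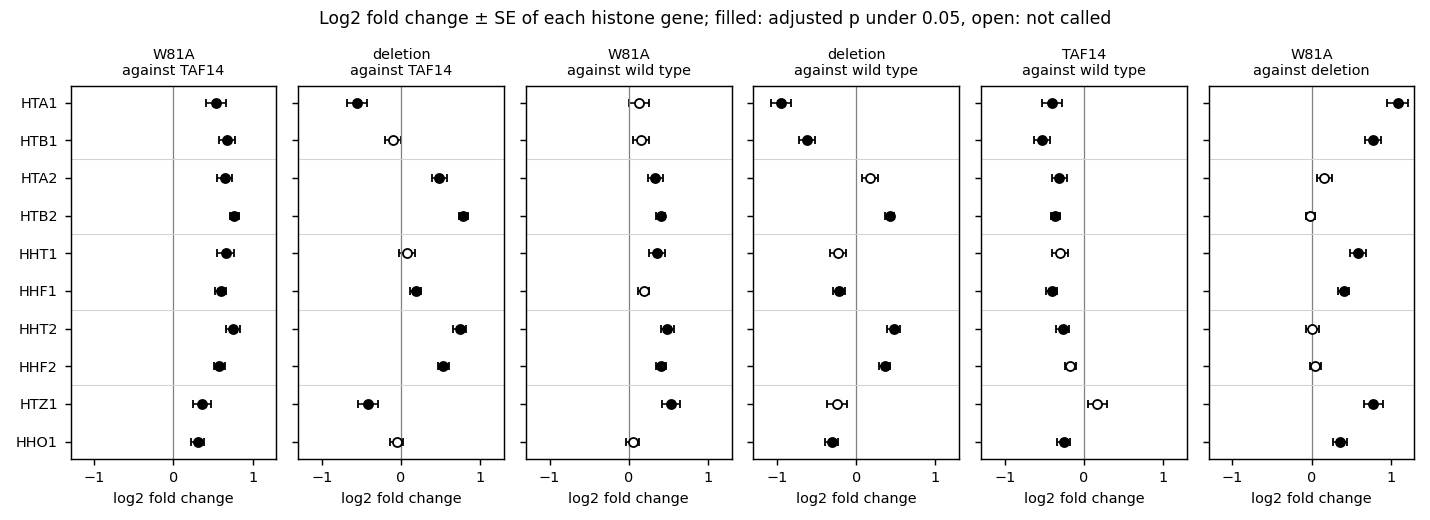
Log2 fold change ± SE (horizontal axis) of each histone gene (down the page), in 6 panels for the 6 comparisons. Each dot is an edgeR estimate from the model of 12 libraries, filled where the adjusted p was under 0.05 and open otherwise. For W81A against TAF14 all 10 dots lie above 0, whereas for deletion against TAF14 they run between -0.55 for HTA1 and 0.78 for HTB2.

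Comparison with wild type sets the plasmid strains against cells whose Taf14 is expressed from the chromosome. In W81A cells 6 of the 10 genes rose against wild type, with 4 not called, where 12.7% of all genes rose and 14.5% fell. All 3 W81A libraries lay above wild type for 8 genes and below for 0, against 23.6% and 24.4% of all genes. The risers were HTB2 (0.41 ± 0.0564, adjusted p = 0.000210), HHT2 (0.49 ± 0.0824, adjusted p = 0.000865), HHF2 (0.41 ± 0.0680, adjusted p = 0.000774), HTA2 (0.33 ± 0.0966, adjusted p = 0.0210), HHT1 (0.35 ± 0.10, adjusted p = 0.0195) and HTZ1 (0.53 ± 0.12, adjusted p = 0.00492). HTB2 had 561, 538 and 583 CPM in W81A cells against 408, 425 and 437 CPM in wild type, and HHT2 had 514, 512 and 502 CPM in W81A cells against 364, 387 and 341 CPM in wild type, without overlap. HTA1, HTB1, HHF1 and HHO1 had log2 differences of 0.13 ± 0.13, adjusted p = 0.470, 0.15 ± 0.10, adjusted p = 0.284, 0.19 ± 0.0696, adjusted p = 0.0593 and 0.0490 ± 0.0816, adjusted p = 0.691. The HTA2 call was lost without the W81A libraries numbered 1 or 3 and without the wild type libraries numbered 1 or 3 (adjusted p = 0.0570 to 0.0805), and the HHT1 call without the W81A or wild type library numbered 3 (adjusted p = 0.0768 and 0.0805). A call was gained for HHF1 with DESeq2 (adjusted p = 0.0448), with the 6 libraries of the comparison alone (0.0266), and without W81A replicate 2 (0.0497), TAF14 replicate 1 (0.0247) or TAF14 replicate 2 (0.0283). A call for HTB1 was gained without TAF14 replicate 2 (adjusted p = 0.0443).

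Against wild type, deletion cells had histone genes changed in both directions. HTB2 (0.42 ± 0.0564, adjusted p = 6.09e-05), HHT2 (0.47 ± 0.0823, adjusted p = 0.000459) and HHF2 (0.36 ± 0.0680, adjusted p = 0.000822) rose, HTA1 (-0.95 ± 0.13, adjusted p = 6.27e-05), HTB1 (-0.63 ± 0.10, adjusted p = 0.000274), HHF1 (-0.22 ± 0.0699, adjusted p = 0.0196) and HHO1 (-0.31 ± 0.0825, adjusted p = 0.00746) fell, and HTA2 (0.17 ± 0.0968, adjusted p = 0.156), HHT1 (-0.23 ± 0.10, adjusted p = 0.0740) and HTZ1 (-0.25 ± 0.12, adjusted p = 0.113) were not called. Over all genes 24% rose and 24.9% fell, so changes in both directions are not particular to the histone genes. Libraries lay wholly above for 4 genes and wholly below for 4, against 28.6% and 29.6% of all genes. HTA1 had 103, 114 and 119.8 CPM in deletion cells against 223, 242 and 189 CPM in wild type, and HTB1 had 250.4, 261 and 248 CPM in deletion cells against 375, 379.8 and 418 CPM in wild type. Neither gene's groups overlapped, and both were lower in every deletion library. The HHF1 fall missed the threshold without the deletion library numbered 2 or 3, or without the wild type library numbered 3 (adjusted p = 0.0542 to 0.0606). Calls were gained for HHT1 without deletion replicate 2 (adjusted p = 0.0442), TAF14 replicate 2 (0.0399) or wild type replicate 3 (0.0261), for HTZ1 without wild type replicate 3 (0.0493), and for HTA2 with the 6 libraries of the comparison alone (0.0224) or without TAF14 replicate 2 (0.0146).

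The plasmid-borne TAF14 strain was itself lower than wild type for 7 of the 10 genes, with 0 higher, where 8.11% of all genes rose and 8.75% fell. Those shares come from 998 calls, of which there were 432 with the 6 libraries of the comparison alone, 559 and 636 without wild type replicate 1 or 3, and 660 and 655 without TAF14 replicate 1 or 3. Libraries lay wholly above for 1 gene and wholly below for 6, against 16.1% and 17.4% of all genes. HTB1 had 249.9, 329.5 and 234 CPM in TAF14 cells against 375, 379.8 and 418 CPM in wild type (-0.53 ± 0.10, adjusted p = 0.00457). HTB2 had 323, 346 and 319 CPM in TAF14 cells against 408, 425 and 437 CPM in wild type (-0.36 ± 0.0566, adjusted p = 0.00109), and HHF1 had 166, 197 and 189.9 CPM in TAF14 cells against 243, 239 and 249.9 CPM in wild type (-0.41 ± 0.0701, adjusted p = 0.00212). These 3 calls held in all 21 alternatives. The other 4 calls, for HTA1 (-0.40 ± 0.13, adjusted p = 0.0461), HTA2 (-0.31 ± 0.0978, adjusted p = 0.0454), HHT2 (-0.27 ± 0.0826, adjusted p = 0.0431) and HHO1 (-0.26 ± 0.0823, adjusted p = 0.0497), were lost in 10, 13, 10 and 17 of them. The count of 7 was 3 without wild type replicate 1 or 2, deletion replicate 2, TAF14 replicate 1 or 3, or any W81A library, and 4 without deletion replicate 3. Without the TAF14 library numbered 2, 9 genes were called lower, HHT1 (-0.38, adjusted p = 0.0145) and HHF2 (-0.24, adjusted p = 0.0117) being added. HHT1 was also called with DESeq2, with upper-quartile scaling, with the replicate block, and without wild type replicate 3 or deletion replicate 1 (adjusted p = 0.0314 to 0.0485). Differences of the W81A and deletion strains from TAF14 cells therefore start from a level under that of wild type for the genes called.

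Ratios of counts within a library do not depend on scaling, and they were used to compare gene copies and divergent partners. Of 11 ratios tested together, 7 differed among the 4 groups after adjustment (exact permutation test of the 4-group F statistic over 369600 arrangements of the libraries, whose smallest p is 6.49e-05). A comparison of 2 groups of 3 libraries cannot give an exact p under 0.1, so pairs of groups are described by their values and overlap.

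Deletion cells differed in the balance between the 2 copies of each histone. HTA1/HTA2 was 1.41, 1.51 and 1.40 in W81A cells, 0.711, 0.764 and 0.795 in deletion cells, 1.52, 1.61 and 1.52 in TAF14 cells and 1.77, 1.75 and 1.45 in wild type (exact permutation p = 0.00305, adjusted p = 0.00833). Only in the deletion libraries did HTA2 exceed HTA1. HTB1/HTB2 was 0.790, 0.783 and 0.756 in W81A cells, 0.452, 0.456 and 0.432 in deletion cells, 0.773, 0.952 and 0.733 in TAF14 cells and 0.920, 0.894 and 0.956 in wild type (exact permutation p = 0.00253, adjusted p = 0.00833). The deletion libraries were below all 9 others for both ratios.

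For H3, HHT1/HHT2 averaged 0.625 ± 0.0400 in W81A cells, 0.419 ± 0.0344 in deletion cells, 0.668 ± 0.0438 in TAF14 cells and 0.682 ± 0.0334 in wild type (SD, n = 3; exact permutation p = 0.00455, adjusted p = 0.00833). For H4, HHF1/HHF2 averaged 0.675 ± 0.0457 in W81A cells, 0.526 ± 0.0320 in deletion cells, 0.667 ± 0.0266 in TAF14 cells and 0.785 ± 0.0351 in wild type (SD, n = 3; exact permutation p = 0.000584, adjusted p = 0.00500). Relative to TAF14 cells, deletion cells differed by log2 values of -1.04 ± 0.0542 for HTA1/HTA2, -0.87 ± 0.12 for HTB1/HTB2, -0.68 ± 0.0871 for HHT1/HHT2 and -0.34 ± 0.0607 for HHF1/HHF2, all without overlap. Leaving out the TAF14 library numbered 2 gave -1.01, -0.75, -0.65 and -0.36, again without overlap. The same differences for W81A cells were -0.11 ± 0.0439, -0.0686 ± 0.12, -0.0959 ± 0.0766 and 0.0156 ± 0.0653, of which only that of HTA1/HTA2 had no overlap. Against wild type, HHF1/HHF2 differed by -0.58 ± 0.0630 in deletion, -0.22 ± 0.0674 in W81A and -0.23 ± 0.0494 in TAF14 cells, all without overlap. HTB1/HTB2 differed from wild type by -1.05 ± 0.0368 in deletion and -0.25 ± 0.0343 in W81A cells, without overlap. The other copy ratios of W81A and TAF14 cells overlapped those of wild type.

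Copies of 1 histone are close in sequence, which limits how well reads were assigned between them. Coding identity was 93.7% for HTA1 and HTA2, 87.9% for HTB1 and HTB2, 93.2% for HHT1 and HHT2 and 97.4% for HHF1 and HHF2. Of the 50-base windows of the first copy, 4.57%, 0, 12.2% and 21.3% occurred unchanged in the second. Read length and the treatment of multiply placed reads are not given in the sources used here, so levels of single copies are uncertain, most for H4 and least for H2B. The H2B copies share no 50-base window, but their longest identical run is 35 bases. The part of read assignment in the copy ratios was not tested.

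**Figure D4:**
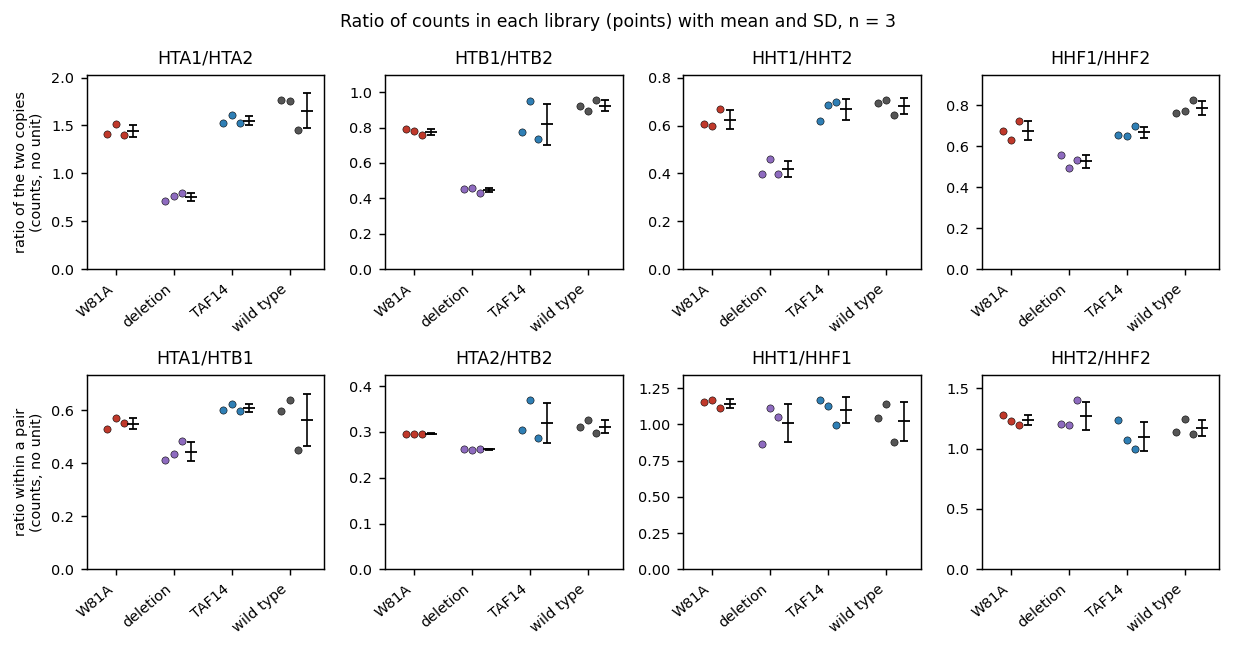
Ratios of raw counts within each library (points; mean and SD, n = 3) for gene copies and divergent partners, on vertical axes from 0, with W81A, deletion, TAF14 and wild type from left to right. In the deletion libraries HTA1/HTA2 lies at 0.711 to 0.795, below every other library.

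Of the 4 ratios between divergent partners 1 passed the test, where all 4 ratios between copies did. HHT1/HHF1 (exact permutation p = 0.399, adjusted p = 0.399) and HHT2/HHF2 (exact permutation p = 0.185, adjusted p = 0.204) did not pass, although HHT2/HHF2 did without TAF14 replicate 1 (adjusted p = 0.0360). HTA1/HTB1 was 0.529, 0.570 and 0.550 in W81A cells, 0.413, 0.436 and 0.483 in deletion cells, 0.601, 0.624 and 0.595 in TAF14 cells and 0.595, 0.638 and 0.451 in wild type (exact permutation p = 0.0425, adjusted p = 0.0584). Wild type replicate 3 was low among its group, and without it the adjusted p of this ratio was 0.00446. Without wild type replicate 2 it was 0.0431. HTA2/HTB2 averaged 0.296 ± 0.000668 in W81A cells, 0.262 ± 0.00148 in deletion cells, 0.320 ± 0.0435 in TAF14 cells and 0.311 ± 0.0139 in wild type (SD, n = 3; exact permutation p = 0.0206, adjusted p = 0.0324). That call was lost without any 1 of the W81A or deletion libraries, or without wild type replicate 1 (adjusted p = 0.0690 to 0.113). Relative to TAF14 cells, HTA1/HTB1 differed by log2 values of -0.45 ± 0.0694 in deletion and -0.14 ± 0.0380 in W81A cells, without overlap. It was also lower in deletion than in W81A cells without overlap, while wild type overlapped every group. HTA2/HTB2 was lower in the deletion libraries than in every other library (-0.28 ± 0.11 against TAF14 cells). The 2 H3-H4 partner ratios overlapped in every comparison.

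As shares of all core histone counts, HTA1 with HTB1 made up 23.1 ± 0.302% in W81A cells, 15.2 ± 0.300% in deletion cells, 23.6 ± 2.18% in TAF14 cells and 26.1 ± 0.359% in wild type (SD, n = 3 each). HHT2 with HHF2 made up 31.6 ± 0.889% in W81A cells, 37.6 ± 0.857% in deletion cells, 31.6 ± 1.02% in TAF14 cells and 29.0 ± 0.740% in wild type. HTA2 with HTB2 reached 29.7 ± 0.791% in deletion cells and 23.8% to 24.9% on average elsewhere. The deletion strain thus had the smallest share from HTA1-HTB1 and the largest from HHT2-HHF2.

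Counts of the H2A and H2B genes over those of the H3 and H4 genes averaged 0.922 ± 0.0149 in W81A cells, 0.816 ± 0.0354 in deletion cells, 0.901 ± 0.0592 in TAF14 cells and 0.997 ± 0.0508 in wild type (SD, n = 3; exact permutation p = 0.00442, adjusted p = 0.00833). Deletion libraries lay below those of W81A cells, and both lay below wild type, while TAF14 cells overlapped every other group. Without TAF14 replicate 2, W81A cells lay above TAF14 cells and deletion cells still overlapped them. The linker histone was followed against H3, its ratio HHO1/(HHT1+HHT2) averaging 0.101 ± 0.00462 in W81A cells, 0.0914 ± 0.00595 in deletion cells, 0.135 ± 0.00343 in TAF14 cells and 0.132 ± 0.00514 in wild type (exact permutation p = 0.000909, adjusted p = 0.00500). The W81A and deletion libraries lay below all TAF14 and wild type libraries for that ratio. HTZ1/(HTA1+HTA2) averaged 0.114 ± 0.0150 in W81A cells, 0.102 ± 0.00904 in deletion cells, 0.136 ± 0.0289 in TAF14 cells and 0.0910 ± 0.00465 in wild type, and it did not pass (exact permutation p = 0.0574, adjusted p = 0.0702). Without TAF14 replicate 2 its adjusted p was 0.00643.

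Levels per kilobase of coding sequence take gene length into account, but the uncertainty of read assignment between copies remains. By this measure HTB2 led in wild type at 1069 ± 37.3 CPM per kb (SD, n = 3). It was followed by HHF2 at 998 ± 27.4, HTB1 at 987 ± 59.5, HHT2 at 886 ± 56.4 and HHF1 at 783 ± 17.1. Below these came HHT1 at 605 ± 66.7, HTA1 at 546 ± 68.0 and HTA2 at 330.1 ± 15.2. HTB2 and HTB1 overlapped, the lowest HTB2 library being at 1030 and the highest HTB1 library at 1056 CPM per kb. HHF2 and HTB1 did not differ beyond their spread, nor did HHT1 and HTA1. HHO1, at 104 ± 11.9, and HTZ1, at 78.6 ± 8.69, were the lowest. In deletion cells HTB2 led at 1432 ± 29.4 CPM per kb, with HHF2 at 1281 ± 75.9 and HHT2 at 1229.9 ± 116 within their spread of each other. HTA1, at 282 ± 20.8 CPM per kb, stood below HTA2, at 372 ± 6.66, there. In W81A cells HTB2 led at 1416 ± 57.0 CPM per kb and HTA2, at 416 ± 17.6, was lowest of the core genes.

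The genes that act on the histone genes were taken as lists. Over all genes 15.8% rose and 17.2% fell in W81A cells against TAF14 cells, and 24.1% rose and 24.8% fell in deletion cells against TAF14 cells. These shares without the TAF14 library numbered 2, a setting chosen after seeing the data, were 17.9% and 18.3% for W81A cells and 27.4% and 25.8% for deletion cells. Counts near those shares are not results about a list. Of 7 repressors and chaperones of histone genes, 1 rose and 0 fell in W81A cells against TAF14 cells, and 3 rose and 1 fell in deletion cells against TAF14 cells. HIR3, a HIR complex subunit, changed by 0.31 ± 0.0626, adjusted p = 0.00227 in W81A cells, and HIR1, another, by 0.13 ± 0.0589, adjusted p = 0.115, which was not a call. Of 5 activators, 2 rose and 0 fell in W81A cells, namely SPT10 (0.24 ± 0.0539, adjusted p = 0.00458) and MBP1, the DNA-binding part of MBF (0.34 ± 0.0865, adjusted p = 0.00988). In deletion cells 1 activator rose and 1 fell: SPT10 had a log2 change of 0.30 ± 0.0538, adjusted p = 0.000570 and SPT21, which works with it, of -0.30 ± 0.0709, adjusted p = 0.00335. SPT10 averaged 78.3 ± 2.99 CPM in W81A cells and 66.3 ± 1.11 CPM in TAF14 cells (SD, n = 3 each). The repressor counts without the TAF14 library numbered 2 were the same, and SWI6, a subunit of SBF and MBF on chromosome XII, was called higher as well, giving 3 activators up and 0 down in W81A cells and 2 up and 1 down in deletion cells.

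Genes that carry, import and assemble histones gave 4 rises and 0 falls of 11 in W81A cells and 4 rises and 2 falls in deletion cells, each against TAF14 cells, beside 15.8% and 17.2% of all genes for W81A cells and 24.1% and 24.8% for deletion cells. Leaving out the TAF14 library numbered 2 gave 2 rises and 0 falls in W81A cells and 5 rises and 3 falls in deletion cells. RLF2, the large subunit of chromatin assembly factor 1, changed by 0.27 ± 0.0792, adjusted p = 0.0183 and SPT16, of the FACT complex, by 0.22 ± 0.0605, adjusted p = 0.0134 in W81A cells, and by 0.44 ± 0.0788, adjusted p = 0.000515 and 0.50 ± 0.0605, adjusted p = 2.36e-05 in deletion cells. The W81A call of RLF2 was lost without that library (adjusted p = 0.0518). Of 10 SWR1 genes, 1 rose and 0 fell in W81A cells, and 5 rose and 1 fell in deletion cells. The W81A riser was BDF1, a bromodomain protein of SWR1 and TFIID (0.38 ± 0.12, adjusted p = 0.0227), which changed by 0.96 ± 0.12, adjusted p = 2.40e-05 in deletion cells. VPS72, the subunit that binds H2A.Z, changed by 0.17 ± 0.0641, adjusted p = 0.0521 in W81A cells, not a call. BDF1 had 287, 297 and 288 CPM in W81A cells and 417, 433 and 446 CPM in deletion cells, against 193, 284 and 191 CPM in TAF14 cells. It lies on chromosome XII, whose genes were higher by 0.480 to 0.534 in the deletion libraries and by 0.568 in the TAF14 library numbered 2, the highest of its group for BDF1. The part of that shift in the BDF1 values was not tested. Without that library BDF1 changed by 0.60 (adjusted p = 8.22e-07) in W81A cells and by 1.17 (adjusted p = 2.96e-10) in deletion cells, each against TAF14 cells. The SWR1 counts were then 3 higher and 0 lower in W81A cells and 6 higher and 1 lower in deletion cells. ARP6 and SWC7, 2 other SWR1 genes on chromosome XII, were among those higher in both.

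Of 7 histone acetyltransferase genes, 2 rose and 1 fell in W81A cells and 0 rose and 2 fell in deletion cells, against TAF14 cells, beside 15.8% and 17.2% of all genes for W81A cells and 24.1% and 24.8% for deletion cells. With the TAF14 library numbered 2 left out they were 1 and 1 in W81A cells and 1 and 2 in deletion cells. GCN5, the catalytic subunit of SAGA, changed by 0.27 ± 0.0610, adjusted p = 0.00510 in W81A cells. SAS3, the catalytic subunit of NuA3, of which Taf14 is a subunit, changed by -0.48 ± 0.0766, adjusted p = 0.000494 in W81A cells and by -0.83 ± 0.0777, adjusted p = 2.56e-06 in deletion cells. Of 5 genes for turnover of histone mRNA or excess histone, 1 rose and 0 fell in W81A cells and 0 rose and 3 fell in deletion cells, or 1 and 3 in deletion cells without the TAF14 library numbered 2. RAD53, a checkpoint kinase that also triggers degradation of excess histone, was the riser (0.71 ± 0.0829, adjusted p = 4.30e-05), and TOM1, a ubiquitin ligase for excess histone, changed by 0.0826 ± 0.0744, adjusted p = 0.427, not a call. CSE4, the centromeric H3, rose by 0.25 ± 0.0672, adjusted p = 0.0132 in W81A cells, and PSH1, its ubiquitin ligase, changed by -0.0380 ± 0.0792, adjusted p = 0.749.

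Cell-cycle markers also differed between the strains. Of 12 G1/S genes, 9 rose and 2 fell in W81A cells against TAF14 cells, with a median log2 change of 0.39, and 4 rose and 3 fell in deletion cells, with a median of 0.12. The shares of all genes were 15.8% higher and 17.2% lower for W81A cells and 24.1% higher and 24.8% lower for deletion cells. The G1/S counts without the TAF14 library numbered 2 were 9 and 2 in W81A cells and 5 and 3 in deletion cells. RNR1, the large subunit of ribonucleotide reductase, changed by 0.93 ± 0.0716, adjusted p = 1.54e-06 and MCD1, a cohesin subunit, by 0.55 ± 0.0578, adjusted p = 2.07e-05 in W81A cells. The 2 G1/S genes that fell were the S-phase cyclins CLB5 (-0.31 ± 0.0833, adjusted p = 0.0122) and CLB6 (-1.17 ± 0.16, adjusted p = 0.000127), named because they fell where most others rose. Of 12 G2/M genes, 1 rose and 10 fell in W81A cells, with a median of -0.48, and 0 rose and 12 fell in deletion cells, with a median of -0.62. With that library left out they were 1 and 10 in W81A cells and 0 and 11 in deletion cells. CDC20, an activator of the anaphase-promoting complex, changed by -0.90 ± 0.0687, adjusted p = 1.46e-06 and the polo kinase gene CDC5 by -0.64 ± 0.0684, adjusted p = 2.41e-05 in W81A cells. The G2/M gene that rose was the mitotic cyclin gene CLB1 (0.69 ± 0.15, adjusted p = 0.00312), named because it rose where most others fell. CLB1 changed by -0.81 ± 0.15, adjusted p = 0.000675 in deletion cells against TAF14 cells.

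Set directly against deletion cells, W81A cells had 6 G1/S genes up and 0 down, and 3 G2/M genes up and 0 down, where 22.7% of all genes were higher and 22.5% lower. RNR1 differed by 0.54 ± 0.0711, adjusted p = 6.14e-05 there. Against wild type W81A cells had 6 G1/S genes higher and 2 lower with a median of 0.24, and 1 G2/M gene higher and 8 lower with a median of -0.38, beside 12.7% and 14.5% of all genes. The deletion strain had 3 G1/S genes higher and 4 lower, with a median of -0.08, and 0 G2/M genes higher and 11 lower, with a median of -0.54, beside 24% and 24.9% of all genes. In TAF14 cells 0 G1/S genes rose and 3 fell against wild type, with 2 G2/M genes rising and 0 falling, beside 8.11% and 8.75% of all genes. These counts were 0 and 4, and 2 and 1, without the TAF14 library numbered 2. The part these genes have in the histone results was not tested.

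**Figure D5:**
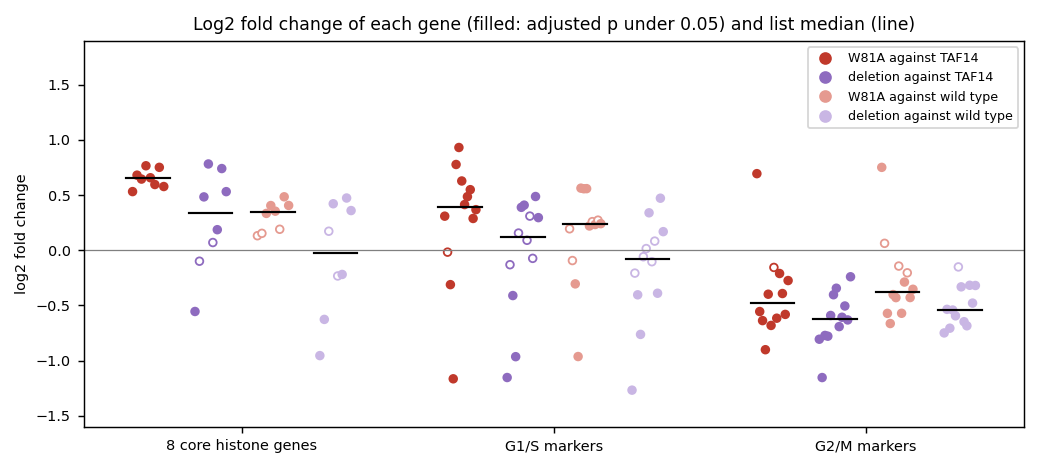
Log2 fold changes (vertical axis) of the 8 core histone genes, 12 G1/S markers and 12 G2/M markers, each point a gene and each line the median, coloured by comparison (W81A or deletion, against TAF14 or wild type) and filled where the adjusted p was under 0.05. G2/M medians are -0.48 for W81A and -0.62 for deletion against TAF14, and the core histone medians are 0.65 and 0.34.

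The genes whose level over the 12 libraries was closest to the mean of the 8 core histone genes were sought. The search covered 3473 genes outside the histone set that had a standard name and a mean log2 CPM of at least 5. The measure was the root mean square difference of centred log2 CPM, whose median over those genes was 0.296. RIM101 (0.0860), BFA1 (0.1004), YCP4 (0.104), PDS1 (0.104), ASF2 (0.106) and SPO71 (0.106) were the closest. PDS1, which encodes securin, stood at a centred log2 level of 0.40 in W81A cells, -0.015 in deletion cells, -0.37 in TAF14 cells and -0.02 in wild type. The core histone mean stood at 0.34 in W81A cells, -0.046 in deletion cells, -0.32 in TAF14 cells and 0.029 in wild type.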

How the data were processed

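The authors deposited a table of read counts per gene with 12 columns, which map to 12 libraries. Per the labels' protocols, total RNA was phenol-chloroform extracted, treated with DNase, depleted of ribosomal RNA (Ribo-Zero Gold) and made into stranded TruSeq libraries. The submitters' processing notes name TopHat2 2.0.14, SAMtools 0.1.19, HTSeq 0.6.1p1, DESeq2 1.8.1 and sacCer3; strand setting, annotation and read length are not given in the sources used here. Of 6692 genes, 6008 matched the R64 RefSeq annotation by locus tag.

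Tests used edgeR 4.0.16 under R 4.3.3 (quasi-likelihood F-test, TMM scaling, default low-count filter, 1 model with 4 groups), which left 5918 genes, 8 residual degrees of freedom and a biological coefficient of variation of 8.59%. The filter removed 774 genes. Adjusted p-values are Benjamini-Hochberg within a comparison over all genes tested, and a call is an adjusted p under 0.05. Log2 fold changes are ± standard error, the first-named group over the second. That standard error was derived as the size of the log2 fold change over the square root of its F statistic. Ratios of raw counts were tested by exact permutation. The pipeline was tested on simulated data.

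The members, lists and tests were chosen with earlier results of these data known. Of each list the text names the 2 genes with the smallest p in W81A against TAF14, and others only where a result turned on them. Sequences are from RefSeq R64. Alternatives were DESeq2, limma-voom, 2 other scalings, 2 other filters, the 6 libraries of a comparison alone, a replicate block, chromosome XII left out, and each library left out in turn. For ratios they were 0.5 added to each count, the block and each library left out. List counts and ratio differences without TAF14 replicate 2 were added after seeing the data.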

Additional observations from a re-analysis of the deposited data

Results flagged for a closer look

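6 histone genes differed between the effect of the W81A form and that of the deletion, each measured against the TAF14 strain. Because both effects share the TAF14 libraries, the difference equals the direct comparison of the W81A strain with the deletion strain, tested with edgeR. On the log2 scale it was 1.09 for HTA1, 0.78 for HTB1, 0.59 for HHT1, 0.41 for HHF1, 0.78 for HTZ1 and 0.36 for HHO1, all higher in the W81A strain and all without overlap of the libraries. The genes of the HTA2-HTB2 and HHT2-HHF2 pairs did not meet the adjusted threshold.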

How the results depend on the processing

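Of the 1260 values that 21 alternatives gave for the 60 gene results, 1159 kept direction and call, 75 lost the call, 21 gained it and 5 changed sign, none of the 5 being a call in either setting. HTB1 in deletion against TAF14 was 0.066 without TAF14 replicate 2 (-0.19 to 0.066 over libraries left out in turn). HHT2 in W81A against deletion was -0.028 without chromosome XII and -0.057 without deletion replicate 1 (-0.057 to 0.077). HTB2 in that comparison was 0.013 without W81A replicate 2 (-0.045 to 0.013), and HHO1 in W81A against wild type was -0.022 without wild type replicate 3 (-0.022 to 0.14). With the 6 libraries of the comparison alone, the histone genes called lower in TAF14 against wild type numbered 3 in place of 7, and all genes called 432 in place of 998. That count was 559 and 636 without wild type replicates 1 and 3, and 660 and 655 without TAF14 replicates 1 and 3. Leaving out each library in turn gave 8 to 10 genes called higher in W81A against TAF14, 4 to 5 higher and 1 to 2 lower in deletion against TAF14, 6 to 7 higher in W81A against deletion, 4 to 8 higher in W81A against wild type, 3 to 4 higher and 3 to 5 lower in deletion against wild type, and 3 to 9 lower in TAF14 against wild type. Without 1 library at a time, adjusted p ranged from 0.00446 to 0.141 for HTA1/HTB1, 0.00643 to 0.113 for HTA2/HTB2, 0.0360 to 0.447 for HHT2/HHF2 and 0.00643 to 0.172 for HTZ1/(HTA1+HTA2). The other 7 ratios kept their side of the threshold. Replicate numbers gave no clear pairing of the samples: same-numbered libraries correlated above 0.1 in 3 of 18 pairs (-0.245 to 0.335). Libraries of unlike number correlated by -0.406 to 0.448. Levels were centred within each group of 3 first, so these values cannot tell whether libraries shared a batch. With the replicate block, HTA2/HTB2 had an adjusted p of 0.0573, the TAF14 against wild type calls of HHT2 (adjusted p = 0.0522) and HHO1 (0.0641) were lost, and that of HHT1 (0.0485) was gained. The cause of these changes was not tested. At 22.9 to 50.1 CPM, HTZ1 had the fewest counts of the 10 genes.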
